A study of Mus musculus with 6 samples.

Results

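Trailers of 24 nt or more were taken from the deposited counts of tRNA-derived fragments (tRFs) in mouse heart. They are the sequences of the class tRF_1 whose length is at least 24 nt, a rule that uses no measured level. Of 1336 sequences in the tables, 435 were of that class and 150 met the length limit. At the limit, 38 trailers had 23 nt, 25 had 24 nt and 16 had 25 nt. A tRNA is transcribed by RNA polymerase III as a precursor with extra bases at both ends. ELAC2, the RNase Z of nucleus and mitochondria, cuts after the discriminator base and releases the 3′ trailer. Transcription stops in a run of T, so a trailer that is complete begins right after the tRNA body and ends in T (U in the RNA, written as T in the tables), and the La protein is known to bind such ends.

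The libraries came from hearts of 3 control mice, titled L/L, and 3 Elac2 knockout mice, titled L/L, cre, all of C57BL/6 background. All 6 mice carry loxP sites around an exon of Elac2; the knockout mice also express cre from the muscle creatine kinase promoter, which is active in heart and skeletal muscle. The genotype field calls the groups Elac2 +/+ and Elac2 -/-, while the titles of the controls name loxP alleles, and no age is stated in the labels. RNA came from whole hearts, so fewer cells of a type and less RNA per cell cannot be told apart, and tRFs hold no marker that could check the tissue or the loss of Elac2. Libraries were selected for RNA of 15 to 35 nt.

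The control libraries held 235046 to 773252 tRF counts and the knockout libraries 45354 to 61712, whereas trailer counts ran from 2767 to 6164 and from 3099 to 4636. These totals are sums of the tables, not sequencing depth, and the groups stand apart in them. TMM scaling set the factors at 0.215 to 1.02 in controls and 1.85 to 2.56 in knockouts. Over all 254 tested sequences the median log2 fold change was 0.06 with TMM and 2.15 with library totals alone, so each fold change below is relative to the bulk of tested sequences.

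The sequences below carry most of what follows; capitals mark the T-run at the 3′ end. The first 4 share 1 start and held 51.8% to 58.9% of the long-trailer counts in control libraries and 36.3% to 47.5% in knockout libraries.
tRF_1_363: gccctctttccgtgtggatttaagaaTTT
tRF_1_371: gccctctttccgtgtggatttaagaaTTTT
tRF_1_377: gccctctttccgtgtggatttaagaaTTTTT
tRF_1_383: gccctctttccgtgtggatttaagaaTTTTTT
The next 4 share another start, and the first of them is a trailer under 24 nt that ends in a T-run lying inside the longer forms.
tRF_1_190: tttagtagtaccgtcccTTT
tRF_1_308: tttagtagtaccgtccctttgcag
tRF_1_359: tttagtagtaccgtccctttgcagcTTT
tRF_1_369: tttagtagtaccgtccctttgcagcTTTT
The last pair are the long trailers called higher in the knockout.
tRF_1_312: acggctacttaccgtgtgtcccTTT
tRF_1_332: ctctctcacttttaagtaattcTTTT

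Long trailers were a minority of the trailer pool in both groups, and their share did not set knockout hearts apart. They made up 18.2%, 26.5% and 14.4% of trailer counts in the control libraries and 18.1%, 15.7% and 12% in the knockout libraries. The groups overlapped: control replicate 3 lay below 2 of the knockout libraries. The means were 19.7% ± 6.18 (SD, n = 3) and 15.3% ± 3.06 (SD, n = 3), a difference of −4.43 percentage points, smaller than the control SD. The 95% Wilson interval was 24.9% to 28.2% in control replicate 2 and 10.9% to 13.2% in knockout replicate 3. Intervals and limits here cover counting error only. Being a sum over the members, this share was given no test.

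As a percentage of the tRF counts of each library, long trailers reached 0.477%, 0.0948% and 0.161% in controls and 1.498%, 1.19% and 0.603% in knockouts. Each knockout library lay above each control library, with means of 0.244% ± 0.204 (SD, n = 3) and 1.098% ± 0.455 (SD, n = 3). Trailers under 24 nt also lay apart, at 1.12% ± 0.952 (SD, n = 3) and 5.87% ± 1.27 (SD, n = 3). The total tRF count moves with both shares, being lower in every knockout library, and its part in the difference was not tested. In raw counts the long trailers overlapped, with 1122, 733 and 610 counts in controls and 838, 541 and 372 in knockouts.

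Most long trailers were rare. The 150 members held 4216 counts over the 6 libraries, and 79 of them had 3 counts or fewer. 17 members were seen in all 6 libraries and 69 in 1 library. In controls only, 49 members were seen, none with more than 13 counts, and in knockouts only 36, none with more than 6. Controls held more long-trailer counts, 2465 against 1751, and 46 members had a single count. The same tally over all sequences is not given here, so nothing is read from these numbers. The 5 most abundant members held 62.2% of the counts. Where a member was not seen, up to 3 counts remain possible, or 0.0487% to 0.108% of the trailer counts, depending on the library.

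The length spectrum had a shoulder at 24 and 25 nt, a trough at 27 nt and a peak at 29 to 31 nt. The 10 sequences of 27 nt held 30 counts, against 1200 for the 10 sequences of 29 nt and 932 for the 7 of 30 nt. Few sequences made this peak: tRF_1_363 (798 counts) and tRF_1_369 (381) at 29 nt, tRF_1_371 (822) at 30 nt and tRF_1_377 (430) at 31 nt. Sequences of 29 to 32 nt held 66.0% of all long-trailer counts and those of 24 to 28 nt held 23.7%. The upper limit of the size selection was passed by 24 sequences, with 244 counts in all. The longest, tRF_1_435, has 77 nt, ends in 4 T, extends the 23-nt trailer tRF_1_279 by 54 nt and had 1 count, in knockout replicate 3.

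**Figure D1:**
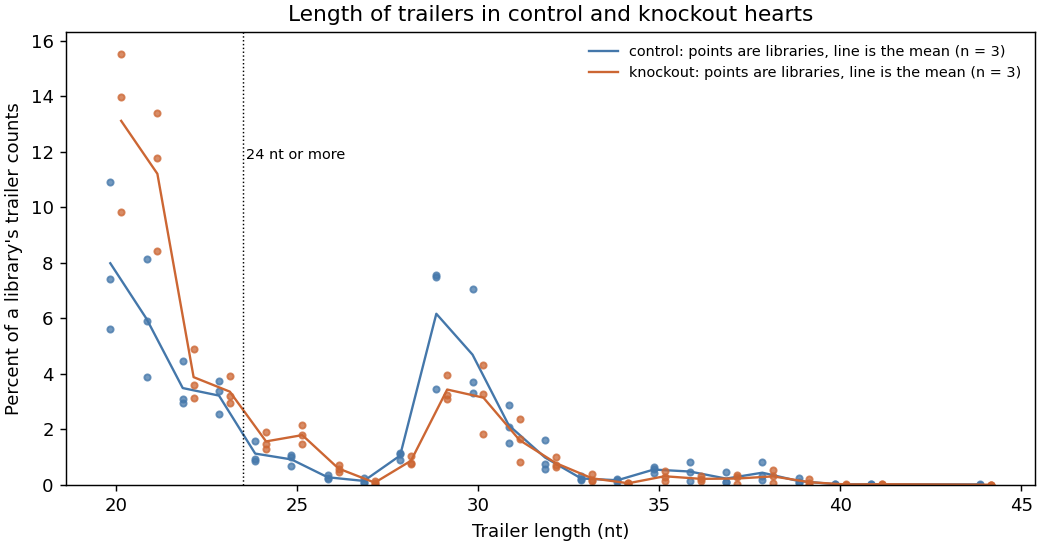
Percent of each library's trailer counts (vertical axis) at each trailer length from 20 to 44 nt (horizontal axis); points are libraries and lines the means of 3 control and 3 knockout libraries. Beyond the dotted line, counts gather at 29 to 31 nt in both groups, and the 25-nt shares lie apart, at 0.661% to 1.08% in controls and 1.45% to 2.14% in knockouts, only with tRF_1_312: without it they overlap, at 0.52% to 1.08% and 0.483% to 0.909%.

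Within the long trailers, the share of the shorter lengths was higher in knockout libraries, and the lack of overlap, though not the whole difference, rested on 1 member. Members of 24 to 28 nt held 19.96%, 14.7% and 20.3% of long-trailer counts in controls and 26.7%, 30.3% and 41.7% in knockouts, so that the groups did not overlap. The means were 18.3% ± 3.13 (SD, n = 3) and 32.9% ± 7.80 (SD, n = 3). Without tRF_1_312, of 25 nt, the control libraries had 19.1%, 14.7% and 19.5% and the knockout libraries 19.3%, 26.2% and 37.6%. The groups then overlapped, by control replicate 3 and knockout replicate 1, with means of 17.8% ± 2.66 and 27.7% ± 9.26 (SD, n = 3). This member was picked because it was called higher, so leaving it out had to narrow the difference. Members of 29 to 32 nt went from 70.4% ± 3.58 (SD, n = 3) to 58.1% ± 4.23 (SD, n = 3), again without overlap; without tRF_1_312 these were 70.9% ± 3.53 and 62.5% ± 4.99 (SD, n = 3), and control replicate 3 (67.1%) lay just above knockout replicate 1 (66.4%). Members of 33 to 35 nt and of 36 nt or more overlapped between the groups, at 4.95% ± 1.26 and 3.69% ± 1.37 (SD, n = 3), and at 6.26% ± 3.5 and 5.30% ± 2.69 (SD, n = 3). The length bands were chosen after the spectrum was seen, and these shares were given no test.

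T-runs ended most counts of long and of short trailers alike. Of the 150 members, 61 ended in TTT, and they held 83.1% of the counts. Among 285 trailers under 24 nt, 127 ended in TTT, with 84.9% of the counts. Per library, TTT ends made up 85.5%, 85.4% and 81.6% of long-trailer counts in controls and 85.3%, 79.5% and 73.7% in knockouts. The groups overlapped, with means of 84.2% ± 2.19 (SD, n = 3) and 79.5% ± 5.83 (SD, n = 3). For trailers under 24 nt the values were 82.7%, 83.6% and 87.3%, and 84.5%, 87.5% and 84.7%. Long trailers thus lay below short ones in control replicate 3 and in knockout replicates 2 and 3, and above them in the other 3 libraries. Ends of 3 T and of 4 T were the most frequent, with 1365 and 1449 counts, followed by 558 counts for 5 T and 127 for 6 T. No T at the end was found in 42 members with 429 counts.

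A run of 4 T (TTTT, read on the strand of the fragment) before the final T-run was found in 60 of 150 members, with 9.72% of their counts, and in 83 of 285 shorter trailers, with 4.08%. A longer sequence has more positions for such a run, and the classes were not matched for length. In 5 members the sequence passed a run of at least 4 T by a single A at the end, with 18 counts in controls and 16 in knockouts. GC content did not separate the classes: the median was 42.0% in long and 40.9% in short trailers. The first base was T in 87 members, G in 37, A in 14 and C in 12.

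Most long trailers, with nearly all of the counts, were longer forms of another trailer, which could itself be of 24 nt or more. Of the 150 members, 124 begin with the whole sequence of a shorter trailer, and they held 99.0% ± 0.532 (SD, n = 3) of long-trailer counts in controls and 98.3% ± 0.997 (SD, n = 3) in knockouts. The shorter trailer need not be seen in the same group. tRF_1_363, with 213 counts in knockouts, extends only tRF_1_353 and tRF_1_333, and each of these had 0 counts in knockouts. The step from the longest such shorter form was 1 nt in 84 of the 124, and the added base was T in 58 of these. A form under 24 nt with the same start existed for 111 members. The other 26 members extend nothing and held 59 counts, led by tRF_1_303 with 11 counts and tRF_1_352 and tRF_1_382 with 8 each. Counts were uneven along the series of 1 start: tRF_1_353, of 28 nt, had 7 counts, and tRF_1_363, longer by 1 nt, had 798. The next steps, tRF_1_371, tRF_1_377 and tRF_1_383, had 822, 430 and 123.

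Members that extend a trailer under 24 nt held 38.8%, 39.4% and 46.2% of long-trailer counts in controls and 48.3%, 55.6% and 61.0% in knockouts. A short form with any count qualifies, and some were very rare. For tRF_1_332 the only one is tRF_1_259, with 1 count, in control replicate 2, and for tRF_1_312 it is tRF_1_249, with 5 counts. For tRF_1_323 they are tRF_1_70 and tRF_1_105, with 1 and 5 counts. Every knockout library was above every control library, with means of 41.5% ± 4.13 (SD, n = 3) and 55.0% ± 6.37 (SD, n = 3). The lack of overlap again rested on tRF_1_312: without it, control replicate 3 had 45.7% and knockout replicate 1 had 43.1%, and the groups overlapped. The means were then 41.1% ± 4.05 and 51.5% ± 7.73 (SD, n = 3). The start of tRF_1_371 has no such shorter form, and its share of the same total, given next, was lower in knockouts. These shares nearly fill that total: 38.8% and 59.3% in control replicate 1, 61.0% and 36.8% in knockout replicate 3. Most counts of that start also lie at 29 to 32 nt, so the shifts by length, extension and start are not separate observations.

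By their first 12 bases the members fall into 58 starts, of which 5 held 86.9% of the counts. The start of tRF_1_371 had 7 members of 26 to 33 nt and no trailer under 24 nt. It held 59.3%, 59.8% and 52.0% of long-trailer counts in controls and 48.1%, 43.4% and 36.8% in knockouts, and the groups did not overlap. The means were 57.0% ± 4.36 (SD, n = 3) and 42.8% ± 5.66 (SD, n = 3). With tRF_1_312 taken out of the total, control replicate 3 had 52.5% and knockout replicate 1 had 53.0%, so that the groups overlapped. The means were then 57.4% ± 4.24 and 46.1% ± 6.80 (SD, n = 3). The start of tRF_1_369 held 18.5% ± 2.48 (SD, n = 3) and 21.4% ± 7.36 (SD, n = 3), with overlap. That of tRF_1_323 held 10.8% ± 1.81 (SD, n = 3) and 7.45% ± 2.47 (SD, n = 3), also with overlap.

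**Figure D2:**
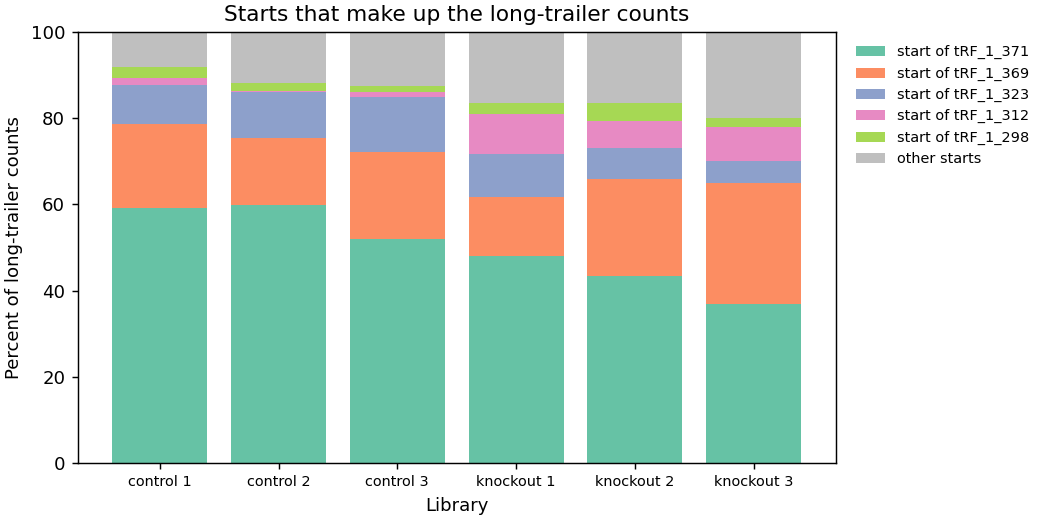
Percent of long-trailer counts (vertical axis) by shared first 12 bases in each of the 6 libraries (horizontal axis), each start named by its most abundant member. The start of tRF_1_371 takes 52.0% to 59.8% in controls and 36.8% to 48.1% in knockouts, while that of tRF_1_312 takes 0.136% to 1.52% and 6.47% to 9.31%.

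The forms of the start of tRF_1_371 differ in how many T follow the same 26 bases. In control libraries 52.5%, 32.4% and 30.7% of these forms ended in 3 T, and in knockout libraries 22.6%, 29.8% and 39.3%. Control replicate 1 had the most forms with 3 T, and the groups overlapped. The mean number of T was 3.91 ± 0.201 (SD, n = 3) in controls and 4.04 ± 0.129 (SD, n = 3) in knockouts. For the start of tRF_1_369, with 25 bases before the T-run, it was 3.70 ± 0.183 (SD, n = 3) and 3.83 ± 0.128 (SD, n = 3). Neither difference exceeded the control SD.

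**Figure D3:**
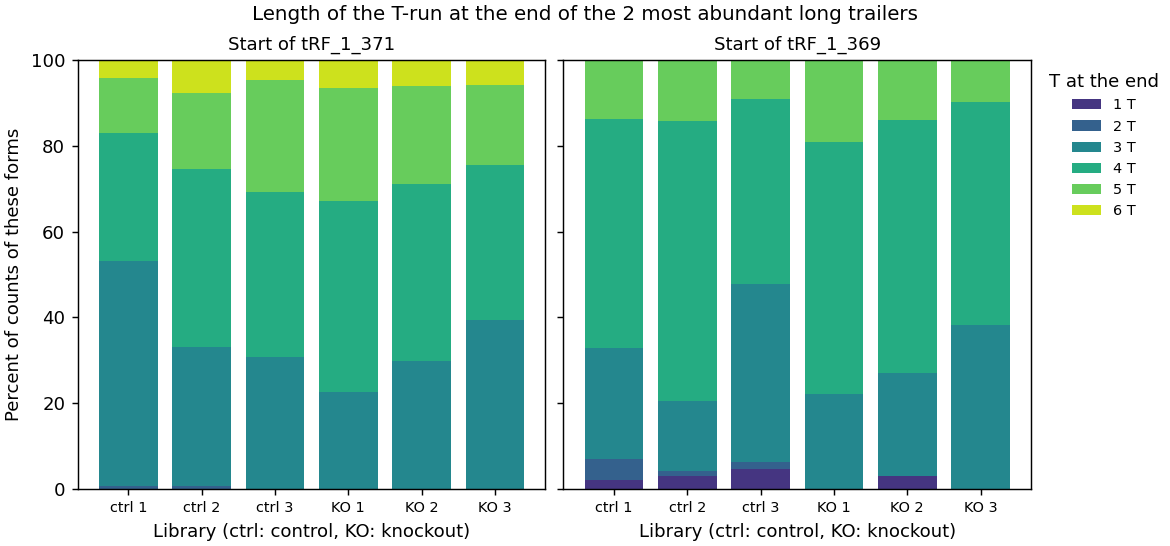
Percent of counts (vertical axis) ending in 1 to 6 T in each library (horizontal axis), for the forms of the starts of tRF_1_371 and tRF_1_369 that share everything before the T-run. Most forms end in 3, 4 or 5 T in all 6 libraries, and control replicate 1 shows the largest share with 3 T for the first start, 52.5%.

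None of these abundant forms passed the test. Levels are given as CPM, that is, counts scaled to a common TMM-adjusted library total. The most abundant member, tRF_1_371, had 831, 1088 and 809 CPM in controls and 1340.1, 856 and 435 CPM in knockouts. The knockout libraries lay on both sides of the controls, and the log2 fold change was −0.05 ± 0.62 (SE; by edgeR, adjusted p = 0.96). Its form with 1 T less, tRF_1_363, had 1464, 853 and 643 CPM in controls and 681, 617 and 471 CPM in knockouts. Control replicate 1 was highest and the groups overlapped, with a log2 fold change of −0.74 ± 0.61 (SE; by edgeR, adjusted p = 0.41). The forms with 5 and 6 T, tRF_1_377 and tRF_1_383, had 0.12 ± 0.67 and −0.07 ± 0.70 (SE; by edgeR, adjusted p = 0.93 and 0.96).

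The start of tRF_1_369 had forms that end at 2 different T-runs. Its 20-nt form tRF_1_190 ends in the TTT that lies inside the longer forms and had 46, 38 and 50 counts in controls and 45, 26 and 24 in knockouts. The form tRF_1_369, which reaches the later T-run, had 460, 387 and 318 CPM in controls and 447, 520 and 373 CPM in knockouts. Both overlapped between the groups, with log2 fold changes of 0.06 ± 0.67 for tRF_1_190 and 0.20 ± 0.63 for tRF_1_369 (SE; by edgeR, adjusted p = 0.96 and 0.87). Forms of 24 nt or more held 63.2% ± 5.78 (SD, n = 3) of this start's counts in controls and 61.0% ± 7.16 (SD, n = 3) in knockouts. The forms with 3 and 5 T after the later run, tRF_1_359 and tRF_1_376, had log2 fold changes of 0.06 ± 0.71 and 0.32 ± 0.68 (SE; by edgeR, adjusted p = 0.96 and 0.78).

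Between these ends lies tRF_1_308, of 24 nt, with no T at its end. It had 4.22, 60.5 and 39.8 CPM in controls and 75.7, 123 and 187 CPM in knockouts. Each knockout library was above each control library, yet the log2 fold change of 1.91 ± 0.82 (SE) did not pass (edgeR adjusted p = 0.09). Its count was 1 in control replicate 1, and without control replicate 2 it was called, with a log2 fold change of 2.61 (edgeR adjusted p = 0.026); over its 14 alternatives it was called in 4.

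2 long trailers rose in knockout hearts. Of 254 sequences tested by edgeR's quasi-likelihood method with Benjamini-Hochberg adjustment over all of them, 32.7% were called at an adjusted p under 0.05, 15.7% as higher and 16.9% as lower. Only 15 of the 150 members passed the filter on low counts. They held 80.9% of the long-trailer counts. The filter asks for at least 67.4 CPM of the unscaled total in 3 libraries, so fewer counts suffice in knockout libraries, and these 15 do not stand for the others. 5 of the 15 reached that level in all 3 knockout libraries and in no control library: tRF_1_286, tRF_1_308, tRF_1_312, tRF_1_332 and tRF_1_391. None reached it in controls alone, and over all tested sequences 74 did so in knockouts alone and 1 in controls alone. Both called members, tRF_1_312 and tRF_1_332, are among the 5, so the tally of 2 higher, 0 lower and 13 not called is partly fixed by the filter and nothing is read from it. At an unadjusted edgeR p under 0.05, 3 of the 15 were higher and 0 lower, against 51 and 48 of all 254. DESeq2, fitted to all 1336 sequences, called 2 of the 150 members higher and 0 lower, against 29 and 61 of all. With limma-voom, 2 of the 15 were higher and 0 lower, against 40 and 32 of all 254. Nothing is read from these tallies either. The median log2 fold change of the 15 in edgeR was 0.12, against 0.06 for all tested sequences. Of 43 tested trailers under 24 nt, 2 were higher and 0 lower, with a median of 0.44: 1 of 30 that end in TTT and 1 of 13 that do not.

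The 25-nt trailer tRF_1_312, which ends in 3 T, had 50.6, 0 and 39.8 CPM in controls and 583, 265 and 213 CPM in knockouts. Every knockout library was above every control library, and knockout replicate 1 was the highest. The means were 30.1 ± 26.7 and 354 ± 200.3 CPM (SD, n = 3), and the log2 fold change was 3.49 ± 0.94 (SE; by edgeR, adjusted p = 0.0092). Its raw counts also lay apart, at 12, 0 and 6 against 77, 30 and 24. The 23-nt and 24-nt forms of the same start, tRF_1_249 and tRF_1_287, had 5 and 2 counts in all. The form with 4 T, tRF_1_328, had 5, 0 and 1 counts in controls and 1, 4 and 5 in knockouts, and did not pass the filter. Summed over its members of 24 nt or more, this start had 17, 1 and 7 counts in controls and 78, 35 and 29 in knockouts.

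The 26-nt trailer tRF_1_332, which ends in 4 T, had 8.44, 0 and 13.3 CPM in controls and 129, 123 and 62.2 CPM in knockouts. The knockout libraries were all higher, with knockout replicate 3 the lowest of them. The means were 7.23 ± 6.71 and 105 ± 37.0 CPM (SD, n = 3), and the log2 fold change was 3.72 ± 0.85 (SE; by edgeR, adjusted p = 0.0035). It rests on 4 control counts and 38 knockout counts. The shorter forms of its start did not pass the filter, so only raw counts, not scaled by library, are given for them. tRF_1_315, with 3 T, had 6, 2 and 0 counts in controls and 4, 9 and 2 in knockouts, with overlap. tRF_1_292, with 2 T, had 1, 2 and 0 counts in controls and 2, 9 and 6 in knockouts, where the groups only meet at 2 counts. Whether the rise is particular to the form with 4 T was not tested. The members of this start summed to 9, 4 and 2 counts in controls and 23, 33 and 15 in knockouts.

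**Figure D4:**
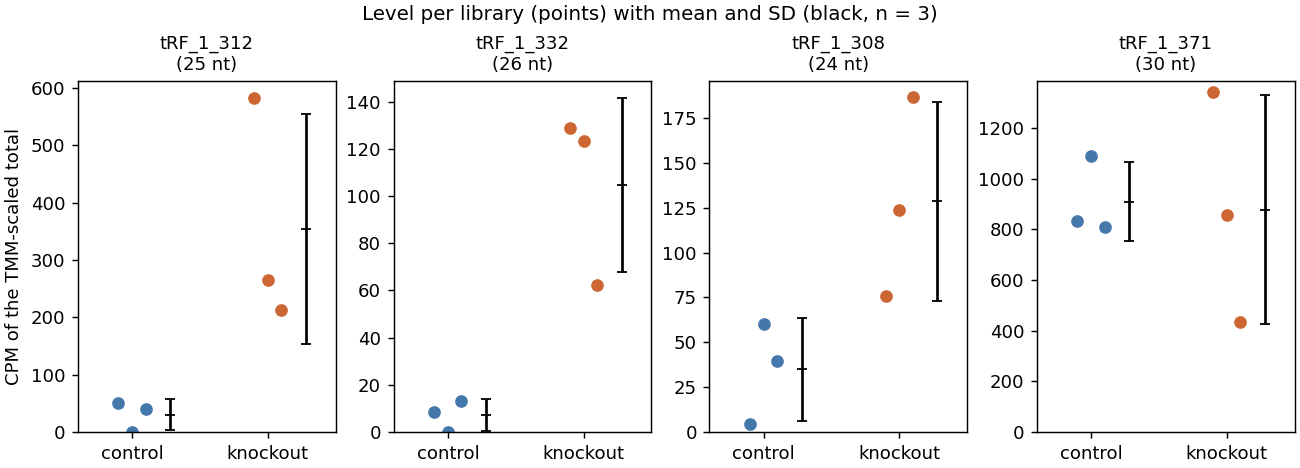
CPM of the TMM-scaled total (vertical axes) in each library, with the mean and SD of 3 libraries in black, for tRF_1_312, tRF_1_332, tRF_1_308 and tRF_1_371. The groups lie apart for the first 3 trailers and overlap for tRF_1_371, whose means are 910 and 877 CPM.

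The CPM of the groups did not overlap in 3 of the 15 tested members, against 43.7% of all tested sequences. These 3 were tRF_1_312, tRF_1_332 and tRF_1_308. Each entered the test through the knockout libraries alone, so nothing is read from their common direction. tRF_1_286 and tRF_1_391 entered in the same way, and their groups overlapped. In the authors' deposited table, 37 members have an adjusted p and 2 of them are under 0.05, against 16.9% of the 532 sequences with one there. That table lists tRF_1_312 with a log2 fold change of 3.38 ± 0.92 (SE, adjusted p = 0.0027) and tRF_1_332 with 3.75 ± 1.25 (SE, adjusted p = 0.021) from DESeq2.

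**Figure D5:**
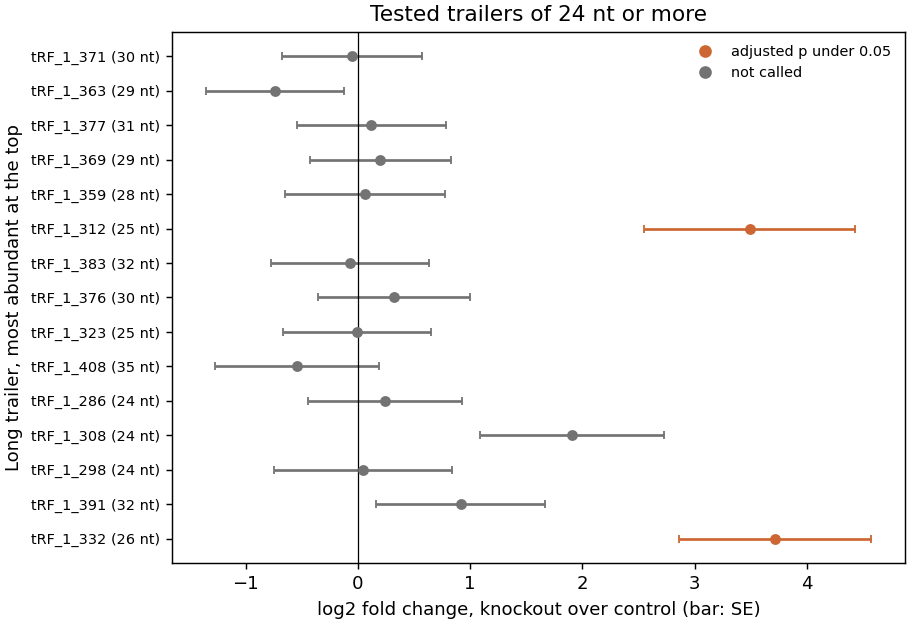
log2 fold change of knockout over control (horizontal axis) with its SE for the 15 tested trailers of 24 nt or more, ordered by summed count (vertical axis). The highest estimates are those of tRF_1_332 and tRF_1_312, 3.72 and 3.49, both tested through the knockout libraries alone. Those of the other 13 run from −0.74 to 1.91, and the bars of tRF_1_312 and tRF_1_308 overlap.

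Members of 2 starts, which lie 1 base apart, could be placed in the genome. Of the 150 members, 0 matched any of 141767 GENCODE M21 transcripts, and 16 matched a RefSeq promoter window of GRCm38, the assembly of mm10. All 16 lie on the plus strand at chr13:21222658-21222695, in the window before Gm32420, a gene annotated on the minus strand. The RefSeq tRNA gene n-TAagc16, an alanine tRNA gene with anticodon AGC, spans chr13:21222586-21222657. 9 of the 16 begin at the first base after that gene and 7 begin 1 base later. A match does not exclude other copies, since only transcripts and promoter windows were searched. The longest form that begins directly after the gene and ends in the T-run is shown with its T-run in capitals, followed by a 24-nt form and a form that begins 1 base later.
tRF_1_424: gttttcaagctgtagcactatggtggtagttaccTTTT
tRF_1_298: gttttcaagctgtagcactatggT
tRF_1_391: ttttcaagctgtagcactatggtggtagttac

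Most counts of trailers with the start of tRF_1_298 fell on forms that end before the T-run, whichever gene copy they came from. tRF_1_424, which reaches it, had 17 counts over the 6 libraries, against 174 for the 23-nt form tRF_1_269 and 53 for tRF_1_298. tRF_1_298 had 110, 18.1 and 26.5 CPM in controls and 75.7, 70.6 and 17.8 CPM in knockouts. Control replicate 1 was highest and the groups overlapped (edgeR log2 fold change 0.04 ± 0.80 SE, adjusted p = 0.97). tRF_1_391, which begins 1 base later and stops before the T-run, had 8.44, 72.6 and 39.8 CPM in controls and 98.4, 61.7 and 62.2 CPM in knockouts, also with overlap (edgeR log2 fold change 0.91 ± 0.76 SE, adjusted p = 0.41). The shorter tRF_1_269 was not called either, with a log2 fold change of 1.302 ± 0.69 (SE; by edgeR, adjusted p = 0.18).

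The start of tRF_1_323 branches into several 3′ parts, so its members begin alike and end differently. Its 24 members share their first 15 bases; capitals in the lines below mark what follows.
tRF_1_323: ttgtggcaacaatggCACGGCAAGG
tRF_1_324: ttgtggcaacaatggTACGGCAAGG
tRF_1_420: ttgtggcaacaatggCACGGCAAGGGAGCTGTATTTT
tRF_1_429: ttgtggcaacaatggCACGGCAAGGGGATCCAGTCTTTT
tRF_1_410: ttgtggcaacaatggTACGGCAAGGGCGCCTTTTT
The forms tRF_1_323 and tRF_1_324 differ by the substitution C16T, counted from 1 at the 5′ end. Those with C part again after 26 bases, into 9 sequences of 29 to 40 nt like tRF_1_420 and 7 of 35 to 44 nt like tRF_1_429. The 7 sequences with T, from 24 to 35 nt, end like tRF_1_410 where they are long enough.

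The 25-nt form tRF_1_323 stops before that split, so its 85 counts cannot be traced to either C branch. It had 110, 72.6 and 92.8 CPM in controls and 106, 70.6 and 97.8 CPM in knockouts, nearly the same range in both groups (edgeR log2 fold change −0.01 ± 0.66 SE, adjusted p = 0.99). The branch of tRF_1_420 had 38, 45 and 46 counts in controls and 34, 20 and 2 in knockouts, lower in each knockout library. As a share of long-trailer counts it was 3.39%, 6.14% and 7.54% in controls and 4.06%, 3.70% and 0.538% in knockouts, and the groups overlapped. The branch of tRF_1_429 had 13, 17 and 5 counts and 18, 4 and 1, and the branch with T had 24, 5 and 12 counts and 18, 7 and 5, both with overlap. The 1 member of these branches that passed the filter, tRF_1_408 of 35 nt, had 71.7, 78.6 and 126 CPM in controls and 106, 61.7 and 17.8 CPM in knockouts (edgeR log2 fold change −0.54 ± 0.73 SE, adjusted p = 0.63). Its form with 3 T, tRF_1_415, had 9, 21 and 17 counts in controls and 10, 7 and 0 in knockouts and was not tested.

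The last of the tested members, tRF_1_286 of 24 nt, has no T at its end and extends 4 trailers under 24 nt. It had 33.8, 78.6 and 86.2 CPM in controls and 98.4, 79.4 and 53.3 CPM in knockouts, with overlap (edgeR log2 fold change 0.24 ± 0.68 SE, adjusted p = 0.85). Its 21-nt form tRF_1_193 had 5, 17 and 27 counts in controls and 5, 13 and 21 in knockouts (log2 fold change 0.18, edgeR adjusted p = 0.91). Long forms can also be a small tail of a short trailer: the start of tRF_1_300 had 44 counts at 24 nt or more and 7335 below, most of them in tRF_1_28, tRF_1_64 and tRF_1_93, of 15, 16 and 17 nt.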

How the data were processed

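Small RNA from 6 mouse hearts, 3 control and 3 Elac2 knockout, was sequenced with 4 technical replicates per mouse, per the labels; the sources used here do not say how these were combined. Bowtie2 2.2.9, cutadapt 1.1.4, DESeq2 1.16.1 and build mm10 are named in the submitters' processing notes, with no roles; how a read matching several sequences was counted is not stated there. The authors deposited raw counts per sequence, and a normalized signal that equals the counts divided by 1 size factor per library. Per the file headers, the authors' deposited comparison holds a mean signal, log2 fold changes, a Wald score and p-values, of which 804 adjusted p-values are missing and stayed out.

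Trailers of 24 nt or more were read from the sequences. The counts of all sequences were first filtered by filterByExpr (a minimum count of 10, set against unscaled library totals) and then scaled by TMM. A model of group alone was then fitted in edgeR 4.0.16 (R 4.3.3) and tested by quasi-likelihood; calls are at a Benjamini-Hochberg adjusted p under 0.05. Each SE comes from the F statistic, whose square root is the ratio of fold change (log2) to SE. The edgeR step was tested on simulated data. Alternatives were DESeq2 1.42.0, limma-voom (limma 3.58.1), other scalings and filters, a replicate block, omission of single libraries, and other length and T-run limits; the omission of tRF_1_312 from shares was added after seeing the data. Named were all members that passed the filter, the 5 most abundant, the longest and the shorter trailers that these extend, of which those with the most counts are described; other members are named for sequence or count and were chosen after their values were seen. The members and lists were chosen with earlier results of these data known. Starts of 12 bases, length bands and branches were also set after the data were seen. Sequences were matched whole to GENCODE M21 transcripts and RefSeq promoter windows. Intervals are 95% Wilson intervals.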

Additional observations from a re-analysis of the deposited data

How the results depend on the processing

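The calls of tRF_1_312 and tRF_1_332 held under every alternative in which each was tested, 14 and 13 settings, with log2 fold changes of 2.91 to 5.28 and 3.20 to 5.84 and adjusted p of 0.0006 to 0.032 and 0.0016 to 0.03. tRF_1_332 was not tested when 10 counts were required in at least 3 libraries. With library totals alone 6 members were called in place of 2, and 104 of all sequences were higher and 7 lower, against 40 and 43; with upper-quartile scaling these were 3 members, 52 and 36. tRF_1_308 was called with library totals alone (4.56), upper-quartile scaling (2.42), 10 counts in at least 3 libraries (2.09) and without control replicate 2 (2.61). Counting only extended trailers under 24 nt, the share of extending members differed by 13.5 percentage points, against −0.65. With each library left out in turn, the number of called members ran from 2 to 3 and of all called sequences from 59 to 91. The difference in share ran from −7.08 to −1.03 points of trailer counts, from 0.653 to 1.101 points of all tRF counts, from −7.60 to −1.77 points for TTT ends and from −1.22 to −0.308 points for extending members.

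With tRF_1_312 left out, an alternative chosen after seeing the data, the difference at 29 to 32 nt was −8.38 points against −12.3, at 24 to 28 nt 9.94 against 14.6, for members that extend a trailer under 24 nt 10.4 against 13.5 and for the start of tRF_1_371 −11.3 against −14.2. The 25-nt share of trailer counts turned from 0.875 to −0.109 points. With each library left out these 5 ran from −14.4 to −9.90, from 10.2 to 17.6, from 10.5 to 16.9, from −16.9 to −11.2 and from 0.701 to 1.04.

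Among named members, signs turned only for those that were not called in either setting. With library totals alone, log2 fold changes became 1.94 for tRF_1_323, 1.09 for tRF_1_363, 2.15 for tRF_1_371, 2.22 for tRF_1_383 and 1.68 for tRF_1_408. With upper-quartile scaling they were 0.36, 0.26 and 0.25 for tRF_1_323, tRF_1_371 and tRF_1_383, and with 10 counts in at least 3 libraries 0.17, 0.11 and 0.0901. Without a filter they were −0.12 for tRF_1_286, −0.27 for tRF_1_298, −0.24 for tRF_1_359, −0.15 for tRF_1_369, −0.027 for tRF_1_376 and −0.24 for tRF_1_377. For tRF_1_298 and tRF_1_377 they were −0.095 and −0.0074 with DESeq2's size factors and −0.14 and −0.045 with DESeq2. With limma-voom they were 0.0068 for tRF_1_323 and −0.034 for tRF_1_377. With a library left out they ran from −0.12 to 0.49 for tRF_1_286, −0.37 to 1.25 for tRF_1_298, −0.17 to 0.21 for tRF_1_323, −0.30 to 0.44 for tRF_1_359, −0.35 to 0.25 for tRF_1_371, −0.21 to 0.49 for tRF_1_377 and −0.35 to 0.27 for tRF_1_383. The cause was not tested.

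With the replicate block, 2 members and 66 of all sequences were called, 35 higher and 31 lower, and tRF_1_377 had a log2 fold change of −0.0295. Same-numbered libraries deviated together with correlations of −0.0054, 0.289 and 0.0452, so the numbers were not taken as pairs. Merging identical sequences was not run, since 0 were found. Of 150 members, 135 did not pass the count filter and have no test. Nothing in the labels says that the mice were of the same litter or prepared together.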
